A study of Mus musculus with 6 samples.

Results

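The genes described here are 8 transcription factors of myeloid cells, namely the C/EBP family members *Cebpa*, *Cebpb*, *Cebpd*, *Cebpe* and *Cebpg*, together with *Spi1* (which encodes PU.1), *Gfi1* and *Nfil3*. The list was given by gene name, and all 8 were found among the 26264 genes of the table of normalized counts. Of these 8 genes, 7 passed a filter on low values (a mean normalized count of at least 10) and were tested with 17404 genes in all. Bulk RNA-seq was performed on untreated HSCs sorted from bone marrow, with 3 WT (C57Bl/6) libraries and 3 *Irf1-/-* (B6.129S2-Irf1 tm1Mak/J) libraries. Mice were 8 weeks old and female, and each library came from 1 mouse, which the labels call a biological replicate. HSCs were taken as Lin-Sca-1+Kit+ cells with CD150 and without CD48. In *Irf1-/-* mice the gene is disrupted in the whole body, so the cells that surround the HSCs lacked IRF1 as well, and effects within HSCs and from their environment cannot be told apart. The question addressed is whether HSCs without IRF1 carry other levels of the factors that direct myeloid differentiation. In bulk samples, fewer cells of a type and less RNA per cell cannot be told apart.

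C/EBP proteins are basic leucine zipper factors that bind DNA as dimers with each other or with related proteins. C/EBPα is required for the step to granulocyte-monocyte progenitors, C/EBPβ supports granulopoiesis under stress, C/EBPδ is induced by inflammatory cytokines, C/EBPε acts late in neutrophil maturation, and C/EBPγ, which lacks an activation domain, serves as a dimerization partner. PU.1 is an ETS factor needed for myeloid and B lymphoid development, GFI1 is a zinc finger repressor that favors the neutrophil fate and restrains HSC proliferation, and NFIL3 is a basic leucine zipper repressor that binds the D-box of clock genes and is needed for NK cell development.

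Reads counted on genes numbered 59658080, 45332573 and 43267486 in WT HSCs (replicates 2, 3 and 4) and 43138521, 57281017 and 45129929 in the *Irf1-/-* libraries with the same numbers. Normalized counts are these reads divided by 1 scaling factor per library. *Irf1* itself had 10122, 11120 and 12057 normalized counts in WT HSCs and 9267, 9524 and 9287 in *Irf1-/-* HSCs. The *Irf1-/-* values were all below the WT values, but reads on the gene were still counted (log2 fold change −0.24, SE 0.088, limma adjusted *P* = 0.170). The deleted part of the gene is not given in the sources used here, so reads from the rest of the transcript do not check the genotype labels.

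The HSC label was examined with 12 marker genes, all of which had reads in these libraries. *Kit*, the most abundant of them, had 82582 ± 1839 normalized counts (SD, *n* = 3 mice) in WT and 82175 ± 5752 in *Irf1-/-* HSCs. *Slamf1*, which encodes CD150, had 3032 ± 176 in WT HSCs, whereas *Cd48* had 314 ± 52.3 (both genes of the sort, chosen for mention after their values were seen). *Ly6a*, which encodes Sca-1, had 7346 ± 399.9 in WT HSCs and 5466 ± 542 in those without IRF1, under the size required for a call (log2 fold change −0.43, SE 0.094, limma adjusted *P* = 0.0245). The summed counts of the 12 markers overlapped between genotypes, and only *Fgd5*, an HSC-restricted signaling gene, was called (log2 fold change 0.83, SE 0.087, limma adjusted *P* = 9.13e-05). One library stood apart in the transcripts of mature neutrophils. The 12 neutrophil markers summed to 9036 normalized counts in WT replicate 4, to 379 and 478 in WT replicates 2 and 3, and to 627, 575 and 839.8 in *Irf1-/-* replicates 2, 3 and 4. *Ngp* was the most abundant of these markers in the mean over all libraries. Lineage-positive cells are removed by the sort, and the source of these reads was not tested. Calls, and some fold changes and medians, are therefore also given without WT replicate 4. The shares, levels per kb, ratios and correlations below rest on all 6 libraries.

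A gene was called when the adjusted *P* of limma was under 0.05 and the absolute log2 fold change (*Irf1-/-* over WT, on log2 of the normalized count + 1) was above 0.58. *Cebpd*, *Gfi1* and *Nfil3* were called higher in *Irf1-/-* HSCs, 3 of the 7 tested factors, and 167 of all tested genes (0.960%) were called higher. How the list was chosen is given with the processing, and the larger share among the 7 was not tested. None of the 7 was called lower, against 166 of all tested genes (0.954%), and *Cebpg* had the lowest unadjusted *P* of the factors with a negative fold change (0.0602). All 3 *Irf1-/-* libraries were above all 3 WT libraries for 4 of the 7 factors, which held for 10.6% of all tested genes. The reverse held for 1 factor, *Cebpg*, and for 9.27% of all tested genes. The median log2 fold change of the 7 was 0.30, beside −0.0028 over all tested genes. The same 3 genes were called by edgeR and DESeq2 on the recovered reads and by limma without WT replicate 4. Each of the other 5 libraries, when left out, ended the call of *Nfil3*, and leaving out *Irf1-/-* replicate 2 ended that of *Gfi1* as well. In limma without an intensity trend in the prior variance, *Nfil3* was still called, but *Cebpd* (adjusted *P* = 0.0746) and *Gfi1* (adjusted *P* = 0.258) were not.

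**Figure D1:**
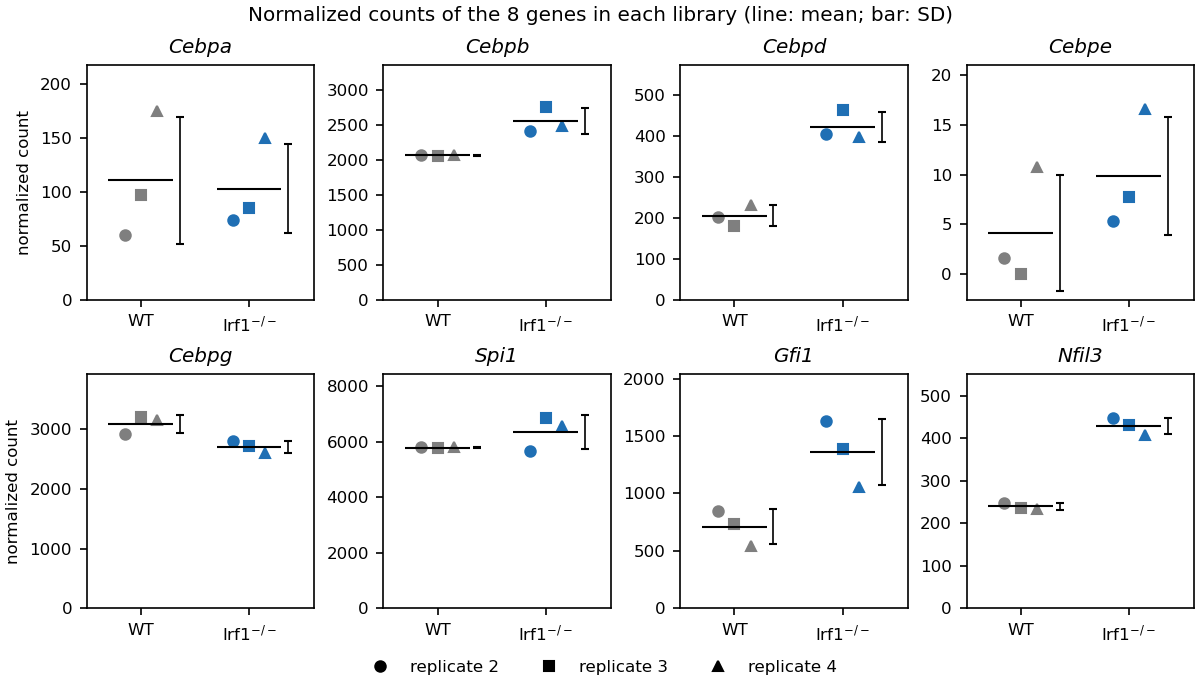
Normalized counts (y axis) of the 8 factors in each WT and *Irf1-/-* library (x axis), with symbols for the replicate number, a line at the mean of 3 mice and a bar for the SD. The *Irf1-/-* libraries lie above the WT libraries for *Cebpb*, *Cebpd*, *Gfi1* and *Nfil3* and below them for *Cebpg*.

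Among the C/EBP genes, the rise was found in *Cebpd*. WT HSCs had 202, 180.3 and 231 normalized counts of *Cebpd* in replicates 2, 3 and 4, and *Irf1-/-* HSCs had 403, 462 and 398. The lowest *Irf1-/-* library was thus well above the highest WT library. Mean levels were 205 ± 25.6 (SD, *n* = 3 mice) and 421 ± 35.9, a ratio of 2.06 (log2 fold change 1.04, SE 0.20, limma adjusted *P* = 0.0105). The fold change of *Cebpd* ranked 387 from the top among all tested genes. Leaving out any single library kept the call, with log2 fold changes of 0.95 at the lowest, when WT replicate 3 was left out, and 1.13 at the highest, when WT replicate 4 was left out. In the gene order of RefSeq, the span of *Cebpd* overlaps with that of *Spidr*, a DNA repair gene, and reads in the shared stretch could be assigned to either gene if strand was ignored in counting, a setting not given in the sources used here. *Spidr* had 3399, 3812 and 2929 normalized counts in WT and 2957, 3333 and 2694 in *Irf1-/-* HSCs, and the groups overlapped (log2 fold change −0.17, SE 0.12, limma adjusted *P* = 0.527).

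*Cebpb* was much more even within WT HSCs, with 2074, 2051 and 2062 normalized counts, and had 2405, 2757 and 2486 in *Irf1-/-* HSCs. The groups did not overlap, but the difference was small (log2 fold change 0.30, SE 0.097) and was not called (limma adjusted *P* = 0.118). Its adjusted *P* was 0.0390 in DESeq2 and 0.0485 in limma after quantile normalization, in both cases with a fold change under the threshold. *Cebpg*, the partner without an activation domain, had 2917, 3197 and 3148 normalized counts in WT HSCs and 2807, 2711 and 2607 in *Irf1-/-* HSCs. Every *Irf1-/-* library was below every WT library, yet the difference of −0.19 (SE 0.092) was not called (limma adjusted *P* = 0.334).

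The levels of the 5 C/EBP transcripts relative to each other were compared per length, as normalized counts per kb of transcript. *Cebpb* made up 65.0%, 62.9% and 61.6% of their sum in WT HSCs and 66.2%, 68.9% and 67.2% in *Irf1-/-* HSCs. The share of *Cebpg* was 29.6%, 31.8% and 30.5% in WT and 25.1%, 22.0% and 22.8% in *Irf1-/-* HSCs, so the groups were separate for both genes. *Cebpd* took 4.22%, 3.68% and 4.59% in WT and 7.38%, 7.69% and 7.15% in *Irf1-/-* HSCs. *Cebpa* held between 1.08% and 2.99% in WT and between 1.16% and 2.32% in *Irf1-/-* HSCs, and *Cebpe* under 1% in every library. The shares depend on the lengths used, which come from an old annotation release. Without division by length, a comparison chosen after seeing the data, *Cebpg* led in WT HSCs (55.5%, 57.9% and 55.9%, against 39.5%, 37.1% and 36.6% for *Cebpb*), and in *Irf1-/-* HSCs it held 49.3%, 45.0% and 46.1%, against 42.2%, 45.8% and 43.9%. *Cebpd* was counted with its RefSeq span of 2260 bases. With a shorter model of 1180 bases, also chosen after seeing the data, its mean share was 7.68% in WT and 13.3% in *Irf1-/-* HSCs, and the shares of *Cebpb* overlapped between genotypes. In all 3 versions the share of *Cebpg* was smaller and that of *Cebpd* larger in every *Irf1-/-* library, whereas which gene led, and whether *Cebpb* differed, depended on the lengths. These shares sum to 100% in each library, so they are not independent of each other, and they were not tested.

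**Figure D2:**
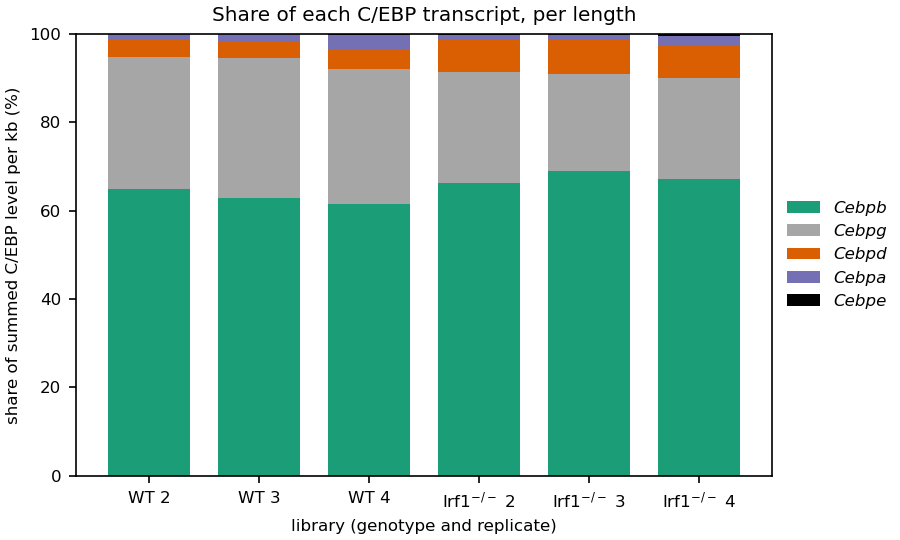
Share of each C/EBP transcript (y axis, percent of the summed level per kb) in each library (x axis, genotype and replicate). With the lengths used, *Cebpb* holds the largest part of every bar, and *Cebpd* widens from 4.16% on average in WT to 7.41% in *Irf1-/-* HSCs.

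*Cebpa* was low and varied widely between mice of 1 genotype. It had 60.1, 96.9 and 175 normalized counts in WT HSCs and 73.6, 85.5 and 151 in *Irf1-/-* HSCs. The groups overlapped throughout, and no difference was detectable at this spread (log2 fold change −0.036, SE 0.41, limma adjusted *P* = 0.982). The direction of *Cebpa* turned with single mice, being −0.40 when WT replicate 2 was left out, 0.36 when WT replicate 4 was left out, and 0.17 and 0.062 without *Irf1-/-* replicates 2 and 3. *Cebpe* was near the limit of detection, with 2, 0 and 10 reads in WT and 5, 9 and 16 reads in *Irf1-/-* HSCs. Those reads equal 1.65, 0 and 10.8 normalized counts in WT and 5.33, 7.78 and 16.6 in *Irf1-/-* HSCs, and the groups overlapped. *Cebpe* was below the filter and was not tested. When the filter was removed, limma gave an adjusted *P* of 0.503. WT replicate 4, the library with the neutrophil transcripts, had the highest WT value of both *Cebpa* and *Cebpe*, and *Irf1-/-* replicate 4 had the highest *Irf1-/-* value of both.

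*Spi1* was the most abundant of the 8 factors per length, with the lengths used here. WT HSCs had 5799.9, 5759.8 and 5794 normalized counts of *Spi1*, and *Irf1-/-* HSCs had 5677, 6837 and 6563. *Irf1-/-* replicate 2 was below all WT libraries and the other two were above them. The mean difference of 0.13 on the log2 scale (SE 0.091) was not called (limma adjusted *P* = 0.542), and it was between 0.077 and 0.21 when single libraries were left out.

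*Gfi1* had 847, 736 and 547 normalized counts in WT HSCs and 1630.0, 1383 and 1058 in *Irf1-/-* HSCs. The spread within each genotype was large, and the lowest *Irf1-/-* library was still above the highest WT library. Mean levels of *Gfi1* were 709.7 ± 152 (SD, *n* = 3 mice) and 1357 ± 287, a ratio of 1.91 (log2 fold change 0.94, SE 0.18, limma adjusted *P* = 0.0126). The call was lost without *Irf1-/-* replicate 2, the library with the highest level (log2 fold change 0.79, limma adjusted *P* = 0.0769). It was kept without each of the other 5 libraries, and the fold change was 0.76 without WT replicate 4 (limma adjusted *P* = 0.0228).

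*Nfil3* showed the tightest groups of the 3 called factors, with 249, 237 and 235 normalized counts in WT HSCs and 448, 431 and 409 in *Irf1-/-* HSCs. The gap between the groups was wider than the range within either of them. The means were 239.9 ± 7.54 (SD, *n* = 3 mice) and 429 ± 19.4, a ratio of 1.79 (log2 fold change 0.84, SE 0.18, limma adjusted *P* = 0.0217). The fold change itself hardly moved when single libraries were left out (0.81 to 0.87), yet the adjusted *P* passed the threshold only without WT replicate 4 (0.0280). It was 0.0888, 0.0537 and 0.0808 without *Irf1-/-* replicates 2, 3 and 4 and 0.0561 and 0.0710 without WT replicates 2 and 3 (limma).

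**Figure D3:**
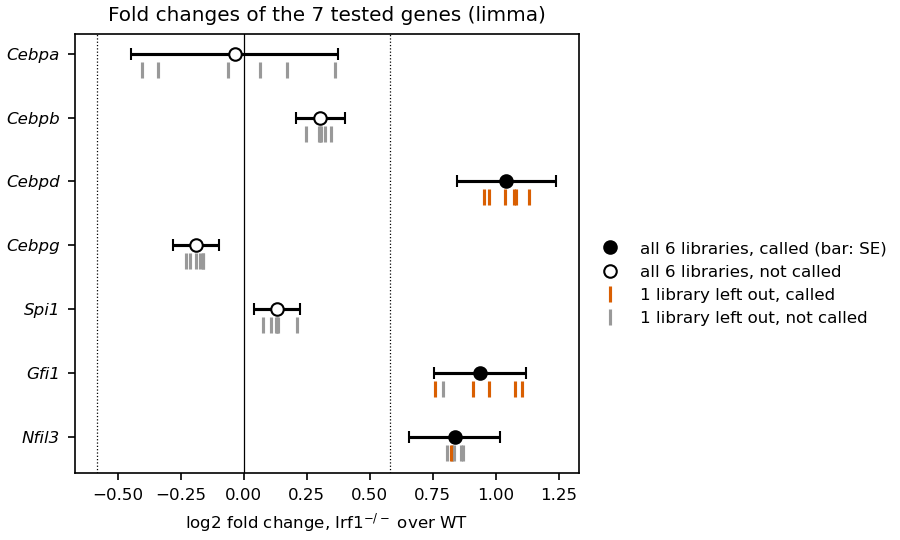
log2 fold changes (x axis, *Irf1-/-* over WT) of the 7 tested factors (y axis), with circles and SE bars for all 6 libraries, ticks for fits without 1 library, and dotted lines at the size required for a call. *Cebpd*, *Gfi1* and *Nfil3* lie right of the upper line in every fit, and the ticks of *Cebpa* fall on both sides of 0.

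Per kb of transcript, the order of the mean levels in WT HSCs was *Spi1* (2844), *Cebpb* (1371), *Cebpg* (666), *Gfi1* (248), *Nfil3* (118), *Cebpd* (90.6), *Cebpa* (42.1) and *Cebpe* (3.34). No library of one gene overlapped with those of the next gene in this order. The order was the same in *Irf1-/-* HSCs, where the means were 3126, 1695, 584, 474, 212, 186, 39.2 and 8.00. There, however, the libraries of *Gfi1* overlapped with those of *Cebpg*, and the libraries of *Cebpd* overlapped with those of *Nfil3*. This order holds for the lengths used. With the shorter model of *Cebpd*, its mean was 173 in WT and 357 in *Irf1-/-* HSCs, above *Nfil3* in both genotypes.

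Antagonism between lineage factors is often read from ratios, so 6 ratios of normalized counts were compared between libraries, not between genes, without a test. *Gfi1* over *Spi1* was 0.146, 0.128 and 0.0943 in WT HSCs and 0.287, 0.202 and 0.161 in *Irf1-/-* HSCs, with no overlap. *Gata1* over *Spi1*, a pair whose products oppose each other at the split of the erythroid and myeloid lineages, was 0.940, 1.43 and 0.786 in WT and 0.734, 0.454 and 0.611 in *Irf1-/-* HSCs. The lower ratio in all *Irf1-/-* libraries came with lower *Gata1* counts, as *Spi1* differed little. *Gata2* over *Spi1* averaged 5.94 in both genotypes. *Spi1* over *Cebpa* (63.0 ± 31.9 in WT, 66.9 ± 20.2 in *Irf1-/-*, SD, *n* = 3 mice), *Cebpb* over *Cebpa* (22.5 ± 11.4 and 27.1 ± 9.21) and *Irf8* over *Cebpa* (6.31 ± 2.16 and 8.31 ± 2.75) all differed by less than the SD between mice. WT replicate 4 had the lowest WT value of each of these ratios over *Cebpa* (33.0, 11.8 and 4.58), and the means were not taken without it.

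Across the 6 libraries, *Cebpd* and *Nfil3* followed each other closely (Pearson *r* = 0.967, *n* = 6 libraries), as did *Cebpb* and *Cebpd* (0.953), *Cebpb* and *Nfil3* (0.922) and *Gfi1* and *Nfil3* (0.917). *Cebpg* ran opposite to *Cebpd* (−0.859) and *Nfil3* (−0.870). *Spi1* was closer to *Cebpb* (0.820) than to *Gfi1* (0.380), and *Cebpa* had a negative *r* only with *Cebpb* (−0.060), *Gfi1* (−0.503) and *Nfil3* (−0.129). Because the 6 points are 2 genotypes of 3 libraries each, any pair of genes that differ between genotypes correlates, and these values are descriptive. Among 12068 other genes with a mean of at least 100 normalized counts, the patterns most like *Cebpd* were those of *Laptm4b* (0.996), *Fam43a* (0.996) and *Phldb2* (0.995), and 146 genes had an *r* above 0.95 with it. The nearest to *Nfil3* were *Gpbp1l1* (0.999), *Ctsh* (0.996) and *Fgd5* (0.996), and 143 genes passed 0.95. *Gfi1* had 49 such genes, led by *Susd6* (0.998), *Abhd5* (0.995) and *Plk2* (0.991). For *Cebpb* they were *Mospd1* (0.996), *Slc27a6* (0.996) and *Junb* (0.992), for *Spi1* *Pik3ap1* (0.994), *Pdzk1ip1* (0.991) and *Tmem176b* (0.9895), for *Cebpg* *Tubgcp2* (0.989), *Hnrnpa2b1* (0.988) and *Tbxa2r* (0.985), and for *Cebpa* *Prorsd1* (0.9897), *Tmem218* (0.978) and *Plag1* (0.967). The number of genes above 0.95 was 96 for *Cebpb*, 34 for *Spi1*, 22 for *Cebpg* and 6 for *Cebpa*. With 6 libraries and 12068 candidates, high values of *r* also arise by chance. The number to be expected was not computed, so these matches do not show shared regulation.

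The nearest tested genes on each side of the 8 factors were also examined, in the gene order of GRCm38.p6. None of them was called by limma, and the lowest adjusted *P* belonged to *Slc7a8*, an amino acid transporter gene beside *Cebpe* (0.282), and *Evi5*, a Rab GTPase activator gene beside *Gfi1* (0.304). *Cebpa* and *Cebpg* are each other's nearest tested gene on 1 side on chromosome 7, and neither was called. On the sides of the called factors, *Evi5* had a log2 fold change of 0.28 (SE 0.13), *Spidr* of −0.17 (SE 0.12) and *Mzt2*, on the other side of *Cebpd*, of −0.12 (SE 0.13). *Auh* and *Ror2* beside *Nfil3* had 0.0032 (SE 0.10) and 0.25 (SE 0.36), and *4930428O21Rik* beside *Gfi1* had −0.40 (SE 0.72). The other neighbors were *Lrp3* and *Pepd* at the *Cebpa* and *Cebpg* pair, *Tmem189* and *Gm14321* at *Cebpb*, *Gm29776* at *Cebpe*, and *Gm39874* and *Mybpc3* at *Spi1*, with limma adjusted *P* from 0.409 to 0.974.

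RefSeq promoter windows, 250 bases before to 50 after a start (GRCm38.p6), were held for 5 of the 8 factors (6 windows, with 2 starts of *Gfi1*). *Cebpd*, *Cebpe* and *Spi1* had no entry. On both strands, 6 motifs were searched among 32851 windows. GAAANNGAAA, a repeat bound by IRF proteins, was held by 3.44% of all windows. TTCNNNGAA, bound by STAT proteins, was held by 8.30%, TTGCNNAA, bound by C/EBP proteins, by 10.8%, GAGGAA, the core bound by PU.1, by 28.3%, TTANGTAA, the D-box bound by NFIL3, by 2.32%, and AAATCNC, which contains the core bound by GFI1, by 11.7%. In the 6 windows the single match was a TTGCNNAA in the upstream window of *Gfi1*. It reads TTGCTGAA on the strand of the gene and begins at position −143 from the start. A match is a stretch of letters and was not tested as a site. The windows of the 2 called factors that have an entry are shown, since these genes rose in the same libraries, with the match in capitals. All lie on the minus strand and read 5′ to 3′. The windows of *Gfi1* are chr5:107725756-107726055 and chr5:107724294-107724593, each with 58.0% G and C, and that of *Nfil3* is chr13:52980990-52981289, with 81.7%.
*Gfi1* upstream start: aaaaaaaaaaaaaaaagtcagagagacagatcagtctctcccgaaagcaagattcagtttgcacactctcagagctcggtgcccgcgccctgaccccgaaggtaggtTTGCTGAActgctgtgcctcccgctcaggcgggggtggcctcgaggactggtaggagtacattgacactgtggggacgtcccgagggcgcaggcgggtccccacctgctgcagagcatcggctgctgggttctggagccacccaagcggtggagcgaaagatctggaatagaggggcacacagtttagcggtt
*Gfi1* downstream start: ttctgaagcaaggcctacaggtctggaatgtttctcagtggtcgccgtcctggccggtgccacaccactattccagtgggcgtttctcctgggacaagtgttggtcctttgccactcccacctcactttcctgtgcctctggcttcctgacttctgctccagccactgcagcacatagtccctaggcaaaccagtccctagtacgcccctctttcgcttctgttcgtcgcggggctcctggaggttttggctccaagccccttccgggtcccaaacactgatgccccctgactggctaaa
*Nfil3*: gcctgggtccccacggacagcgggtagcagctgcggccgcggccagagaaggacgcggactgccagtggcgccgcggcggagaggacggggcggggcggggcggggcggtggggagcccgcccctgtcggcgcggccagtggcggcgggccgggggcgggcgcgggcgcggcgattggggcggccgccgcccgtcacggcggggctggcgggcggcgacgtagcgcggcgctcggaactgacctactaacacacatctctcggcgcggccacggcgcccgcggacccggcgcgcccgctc

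Other genes around these factors were described as 9 lists drawn up by function, with 132 genes, 131 of them tested. Over all tested genes, limma called 0.960% higher and 0.954% lower. Of the 13 genes that act with C/EBP proteins or control them, all were tested, 0 were called higher and 1 lower, and the median log2 fold change was −0.043. This median lay between −0.13 and −0.031 when single libraries were left out. The gene called was *Batf2*, an interferon-induced bZIP gene, with 1049, 859 and 927 normalized counts in WT and 519, 366 and 440.2 in *Irf1-/-* HSCs. The groups were far apart, and *Batf2* was called whichever library was left out (log2 fold change −1.10, SE 0.16, limma adjusted *P* = 0.00193). *Trib3*, a stress-induced pseudokinase gene, and *Trib1*, whose product degrades C/EBPα with COP1, had all *Irf1-/-* libraries above all WT libraries and were not called (log2 fold changes 0.69 and 0.57, SE 0.18 and 0.23, limma adjusted *P* = 0.0505 and 0.217). *Trib3* was called without WT replicate 4 (0.86, limma adjusted *P* = 0.0131) and by DESeq2. *Atf4*, which encodes a partner of C/EBPγ, was lower in all *Irf1-/-* libraries, like *Cebpg*, and was not called (log2 fold change −0.18, SE 0.091, limma adjusted *P* = 0.344). It was chosen for mention after its values were seen.

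Among 25 other transcription factors of myeloid and alternative lineages, 0 were called in either direction by limma and 0 by DESeq2, and the median log2 fold change was 0.099. With single libraries left out, this median was between 0.051 and 0.14. *Vdr* (0.43, SE 0.085, limma adjusted *P* = 0.0138) and *Hhex* (0.44, SE 0.088, limma adjusted *P* = 0.0147) passed the threshold on *P* but not that on size. *Gata1*, which opposes PU.1, had 5453, 8221 and 4557 normalized counts in WT and 4168, 3102 and 4011 in *Irf1-/-* HSCs. The groups were separate and the gene was not called (log2 fold change −0.66, SE 0.17, limma adjusted *P* = 0.0575). Without WT replicate 4, *Gata1* (−0.84, limma adjusted *P* = 0.0105) and *Gfi1b*, chosen for mention after its values were seen, were called lower. *Gata1* was also called lower after median centring, at a mean of at least 100 normalized counts and with a pseudocount of 5 (limma adjusted *P* = 0.0422, 0.0429 and 0.0485), but not by DESeq2 (adjusted *P* = 0.117) or edgeR (adjusted *P* = 0.0539).

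Cytokines induce *Cebpb*, *Cebpd* and *Nfil3*, so myeloid cytokine receptors and genes of the signaling near them, feedback inhibitors included, were listed. Whether these genes act on the factors in HSCs was not tested. Of 14 such genes, all tested, 5 were called higher and 0 lower, against 0.960% and 0.954% of all tested genes. The larger share was not tested, and the list was chosen with earlier results of these data known. The median log2 fold change was 0.35. *Socs3*, the feedback inhibitor of JAK-STAT signaling, had 694, 568 and 892 normalized counts in WT and 1562, 1724 and 1541 in *Irf1-/-* HSCs, well apart (log2 fold change 1.19, SE 0.15, limma adjusted *P* = 7.37e-04). It was called whichever library was left out. *Csf2rb*, the common β chain of the IL-3, IL-5 and GM-CSF receptors, had 1908, 1501 and 2231 in WT and 3112, 2738 and 4020 in *Irf1-/-* libraries, without overlap (log2 fold change 0.81, SE 0.15, limma adjusted *P* = 0.0114), and the call was lost without *Irf1-/-* replicate 4 (limma adjusted *P* = 0.0525). *Csf2rb2*, its near-identical copy for IL-3, with which it may share reads, was called at 0.83 (SE 0.21, limma adjusted *P* = 0.0457). *Il1r1*, the IL-1 receptor (0.74, SE 0.16, limma adjusted *P* = 0.0217), and *Flt3*, the receptor of a progenitor cytokine (0.67, SE 0.16, limma adjusted *P* = 0.0407), were also called. The last 3 calls were lost with fewer libraries in most cases, although several fold changes were then as large or larger: that of *Csf2rb2* was lost when *Irf1-/-* replicates 2 or 4 or either of WT replicates 2 and 3 were left out and after quantile normalization, that of *Il1r1* when *Irf1-/-* replicates 2 or 3 or either of WT replicates 2 and 3 were, and that of *Flt3* when any *Irf1-/-* library or WT replicate 3 was. All 5 were called without WT replicate 4. *Csf3r*, the G-CSF receptor and a C/EBP target, chosen for mention after its values were seen, had all *Irf1-/-* libraries above all WT libraries and was under the size threshold (0.56, SE 0.10, limma adjusted *P* = 0.0102). It was called higher after quantile normalization and without replicate 2 of either genotype.

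Target genes of the factors were examined next. Of 10 genes listed for primary granules, which include targets of C/EBPα and PU.1 in progenitors, 0 were called by limma and 0 by DESeq2. The median log2 fold change was 0.19, and it turned to −0.081 without WT replicate 2 and to −0.024 at a mean of at least 100 normalized counts. *Prtn3*, which encodes proteinase 3, had 6255, 4841 and 6445 normalized counts in WT and 7608, 7801 and 9879 in *Irf1-/-* HSCs, without overlap but under the size threshold (0.53, SE 0.12, limma adjusted *P* = 0.0334). It was called without WT replicate 2 (0.58, limma adjusted *P* = 0.0497) or WT replicate 4 (0.60, limma adjusted *P* = 0.0185). *Srgn* (−0.31, SE 0.088, limma adjusted *P* = 0.0758) and *Calr* (−0.24, SE 0.11, limma adjusted *P* = 0.293) were not called. *Calr*, which encodes a chaperone and not a granule enzyme, held 32.3% of the counts of the list.

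The 13 secondary and tertiary granule genes, which include targets of C/EBPε, were all tested, with 0 calls by limma and 0 by DESeq2 and a median log2 fold change of −0.35 in limma and −2.23 in DESeq2. *Ltf*, which encodes lactoferrin, had 45.3, 28.2 and 2032 normalized counts in WT and 64.0, 57.9 and 44.6 in *Irf1-/-* HSCs, so its value of −1.32 (SE 1.09, limma adjusted *P* = 0.631) came from WT replicate 4, and it was 0.61 without that library. The median of the list without WT replicate 4 was 1.08, and *Ngp* and *Chil3*, chosen for mention after their values were seen, were then called higher. *Padi4*, the most abundant gene of the list (73.3% of its counts), had a log2 fold change of 0.28 (SE 0.10, limma adjusted *P* = 0.188), and *Ltb4r1*, a leukotriene receptor gene, of 0.55 (SE 0.59, limma adjusted *P* = 0.725). The share of *Padi4* was pooled over libraries with unlike sums, as the list summed to 15542 in WT replicate 4 and to between 4887 and 7372 in the others.

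Of 20 target genes of PU.1, 1 was called higher and 0 lower, with a median of 0.013, close to 0, whose sign also turned in DESeq2 (−0.050), in edgeR and in several other settings. The gene was *Fcer1g*, which encodes the common γ chain of Fc receptors, with 1331, 1420.0 and 1414 normalized counts in WT and 1893, 2384 and 2271 in *Irf1-/-* libraries, without overlap (log2 fold change 0.65, SE 0.11, limma adjusted *P* = 0.00689). The call was lost without *Irf1-/-* replicate 3, where the fold change was at 0.58, under the threshold. *Cd14*, a co-receptor of lipopolysaccharide, was not called (1.17, SE 0.33, limma adjusted *P* = 0.0738), although DESeq2 called 4 genes of the list, *Cd14* among them.

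Of 15 partners and targets of GFI1, 1 was called higher and 0 lower, with a median of 0.016, whose sign turned without WT replicate 4 (−0.019) or *Irf1-/-* replicate 2 (−0.0083). Its co-repressor gene *Kdm1a*, chosen for mention after its values were seen, had a log2 fold change of 0.0035 (SE 0.082, limma adjusted *P* = 0.991). The gene called was *Egr1*, an immediate-early factor repressed by GFI1, with 2744, 3234 and 2778 normalized counts in WT and 6247, 5935 and 5471 in *Irf1-/-* libraries, far apart (log2 fold change 1.01, SE 0.097, limma adjusted *P* = 3.89e-05). It was called whichever library was left out, and its higher level went together with higher *Gfi1*. *Cdkn1a*, a cell cycle inhibitor gene, was not called by limma (0.78, SE 0.24, adjusted *P* = 0.1003) but was called by DESeq2 (adjusted *P* = 0.0267).

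Of 16 tested D-box and clock genes, 0 were called by limma and 0 by DESeq2, in a table where limma called 0.960% of all tested genes higher and 0.954% lower. The median was 0.14, and it fell to 0.043 without *Irf1-/-* replicate 3. A list of this size is too small for its count of 0 to say whether NFIL3 targets changed. *Bhlhe40* (0.49, SE 0.14, limma adjusted *P* = 0.0764), *Hlf* (0.25, SE 0.099, limma adjusted *P* = 0.217) and *Rora* (0.35, SE 0.16, limma adjusted *P* = 0.284) had the lowest *P*. *Bhlhe40* was called without *Irf1-/-* replicate 2 (0.65, limma adjusted *P* = 0.0313). Of 12 immediate-early genes, which respond to cell handling as well as to cytokines, 1 was called higher (*Egr1*) and 1 lower, with a median of 0.099 that turned to −0.090 without WT replicate 4. The lower one was *Btg2*, an antiproliferative gene, with 1758, 1840.3 and 1359 normalized counts in WT and 1341, 954 and 923 in *Irf1-/-* HSCs (−0.63, SE 0.16, limma adjusted *P* = 0.0460). Its call was lost when any of *Irf1-/-* replicates 3 and 4 and WT replicates 2 and 3 was left out, in edgeR (adjusted *P* = 0.0517) and after quantile normalization (limma adjusted *P* = 0.0521). *Ier3* was under the size threshold (0.50, SE 0.11, limma adjusted *P* = 0.0285) and was called without *Irf1-/-* replicate 3 (0.61). In limma without an intensity trend, 0 genes of the 9 lists were called.

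**Figure D4:**
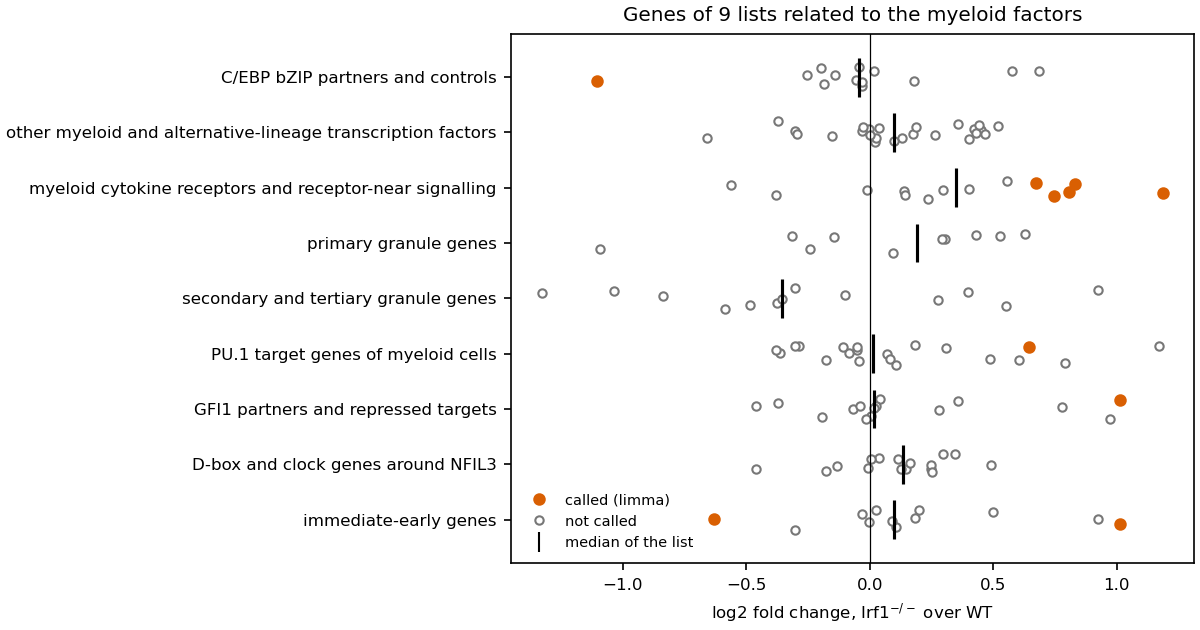
log2 fold changes (x axis, *Irf1-/-* over WT) of the tested genes of the 9 lists (y axis), with called genes in color and a bar at the median of each list. Receptor and signaling genes hold 5 of the calls, and secondary and tertiary granule genes spread most.

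Markers of other cells were counted to see which cells could carry transcripts of these factors. Beside their calls, limma called 0.960% of all tested genes higher and 0.954% lower. Markers of granulocyte-macrophage progenitors, in which *Cebpa* and *Gfi1* are high, had 0 calls among 7 tested genes and summed to 6733, 5408 and 7026 normalized counts in WT and 8266, 8230 and 10555 in *Irf1-/-* HSCs. *Prtn3* made up 92.7% of that sum, so it mostly repeats the values of 1 gene. Of 10 monocyte and macrophage markers, 0 were called by limma and 1 by DESeq2 (*Cd14*, higher), the median was 0.29, and *Lyz2* held 92.4% of their counts. Of 11 tested neutrophil markers, 0 were called (median −0.37), and without WT replicate 4 the median was 0.93 and *Ngp* was called higher. Markers of eosinophils, basophils or mast cells (4 tested, median −0.059), B cells (7 tested, −0.25), T or NK cells (5 tested, 0.0089) and cells removed by the lineage and CD48 gates (4 tested, 0.52) had 0 calls. These medians come from few genes, and leaving out 1 library moved that of B cells between −0.41 and 0.11, that of T or NK cells between −0.38 and 0.36 and that of the gates between 0.14 and 0.75. The median of the monocyte and macrophage markers then lay between 0.19 and 0.72. That of the eosinophil, basophil or mast cell markers lay between −0.17 and 0.022, with a change of sign. Of 5 tested erythroid markers, 2 were called lower, *Klf1* (−0.72, SE 0.17, limma adjusted *P* = 0.0361) and *Car1* (−3.51, SE 0.74, limma adjusted *P* = 0.0200), and the 4 globin genes had no reads. *Klf1* was lost when any of replicates 2 and 3 of either genotype was left out, and *Car1* without *Irf1-/-* replicate 3 or 4 and in both DESeq2 and edgeR. Of 7 tested megakaryocyte markers, 3 were called lower, namely *Pf4* (−1.11, SE 0.18, limma adjusted *P* = 0.00334), *Gp1bb* (−0.90, SE 0.14, limma adjusted *P* = 0.00320) and *Gp1ba* (−0.69, SE 0.14, limma adjusted *P* = 0.0183), the last of which was lost when *Irf1-/-* replicate 2, *Irf1-/-* replicate 3 or WT replicate 3 was left out. Of 12 cycling markers, 4 were called lower (*Mki67*, *Top2a*, *Aurkb* and *Tpx2*, log2 fold changes −0.67, −0.77, −0.63 and −0.59), and the number of calls lay between 0 and 9 when single libraries were left out. In limma without an intensity trend, 0 erythroid, megakaryocyte and cycling markers were called, and the call of *Fgd5* was lost as well. Whether the lower marker calls and the higher *Cebpd*, *Gfi1* and *Nfil3* share a source was not tested.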

How the data were processed

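RNA was measured in HSCs of 3 WT and 3 *Irf1-/-* mice, 1 library per mouse. The submitters' processing notes state that reads were trimmed with Trim Galore, aligned to mm39 with HISAT2 and counted per gene. The deposited values are a signal that the authors made by dividing counts by 1 size factor per library with DESeq2. All values (100% within 0.01 reads) were multiples of the smallest value in the same library, which allowed read numbers to be recovered, and 1 read was worth 0.823 to 1.13 normalized counts. SMART-Seq libraries carry no molecular barcodes, so PCR copies were counted, and depth covers counting error only. Strand use in the counting is not given in the sources used here.

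Normalized counts + 1 were taken to log2, genes with a mean of at least 10 were kept, and limma 3.58.1 with an intensity trend (R 4.3.3) was used with Benjamini-Hochberg adjustment over 17404 genes. Genes were called where the log2 fold change exceeded 0.58 in either direction at an adjusted *P* under 0.05. Alternatives were edgeR 4.0.16 and DESeq2 1.42.0 on recovered reads, which called 165 and 295 genes higher and 162 and 209 lower, other pseudocounts (0.5 and 5), no filter or a mean of at least 100, no intensity trend, quantile normalization, median centring, replicate number as a block, other thresholds, and each library left out. Scripts were tested on simulated data. Python 3.11.15, pandas 2.3.3, numpy 2.4.6 and matplotlib 3.10.9 were used for summaries and figures. Shares without length and a shorter *Cebpd* model were added after seeing the data. Transcript lengths came from GENCODE vM1, or from the RefSeq span where that release lists a pseudogene, and gene order and promoters from RefSeq (GRCm38.p6). The members and lists were chosen with earlier results of these data known. The genes named are the members, *Irf1*, in each list the called genes and, where fewer than 3 were called, those with the smallest *P* up to 3, the nearest tested neighbors, the 3 genes with the most similar pattern, the genes of the ratios, and the most abundant marker of a list. Some genes that this rule names are not reported here. Other genes are marked in the text as chosen after their values were seen.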

Additional observations from a re-analysis of the deposited data

How the results depend on the processing

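With 3 mice per genotype, small changes can be missed, and SDs and SEs rest on few values. Whole-body loss of IRF1, PCR copies and the neutrophil transcripts of WT replicate 4 bear on all results. The number of genes called higher (167) was 295 in DESeq2, 301 without a fold threshold, 258 at an adjusted *P* under 0.1, 7 without an intensity trend, and from 83 to 305 when single libraries were left out. The number called lower (166) was 260 without a fold threshold, 33 without a trend, and from 105 to 265 when single libraries were left out. Members called (3) numbered 1 without a trend and from 1 to 3 when single libraries were left out. Genes called in the 9 lists (9) numbered 14 in DESeq2, 14 without a fold threshold, 0 without a trend, and from 5 to 15 when single libraries were left out. Without a trend, a choice that changes only the variance, *Cebpd* (1.04) and *Gfi1* (0.94) were not called. When single libraries were left out, *Gfi1* ranged from 0.76 to 1.10, *Nfil3* from 0.81 to 0.87, *Cebpa* from −0.40 to 0.36 and *Ltf* from −2.46 to 0.61, the last 2 genes with a change of sign (*Ltf* was at −3.66 in DESeq2). Whether the replicate numbers pair the mice was not settled. Deviations of libraries with the same number correlated at −0.094, 0.246 and 0.147 over genes. For libraries with unlike numbers the values lay between −0.326 (WT replicate 4 with *Irf1-/-* replicate 3) and 0.251 (WT replicate 4 with *Irf1-/-* replicate 2). A replicate block gave 219 genes called higher, 196 lower, 3 members and 10 genes of the lists (*Trib3* in addition).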
